A study of Mus musculus with 6 samples.

Results

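The miR-21a hairpin of the mouse gives rise to the mature miRNAs miR-21a-5p (MIMAT0000530) and miR-21a-3p (MIMAT0004628), and these were described in small RNA libraries from muscle vesicles. They are the 2 of the 2110 counted loci that lie within the hairpin on chromosome 11, and they were chosen by that position. Extracellular vesicles are small vesicles shed by cells into their surroundings. Here they came from the muscle of young mice (3 libraries) and of old mice (3 libraries), and small RNA was sequenced from them. The sources used here do not give ages, sex, strain, the muscles sampled, how vesicles were isolated or whether mice were pooled. Nor do the labels say whether replicates came from separate animals, so a p-value here reflects library-to-library spread alone, and that spread may be technical.

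A miRNA hairpin is cut from its primary transcript by Drosha and trimmed by Dicer to a short duplex of 5p and 3p strands. An Argonaute protein usually keeps 1 strand, the guide, and the other, the passenger, is degraded. In miR-21a the guide is the 5p strand, which represses mRNAs such as those of Pdcd4 and Spry1 and is known from work on fibrosis, inflammation and tumours. It is made in many cell types, including fibroblasts, macrophages and muscle cells, so its presence in a vesicle does not name the cell that released it. Bases 2 to 8 of a miRNA, the seed, do most of the pairing with target mRNAs.

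The mature sequences are shown to let the arms be compared with each other and with the related miRNAs whose reads could be confused with theirs. They are RefSeq sequences on GRCm38.p6, written 5′ to 3′ with the seed in capitals.
miR-21a-5p: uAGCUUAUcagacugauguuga
miR-21a-3p: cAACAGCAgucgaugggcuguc
miR-21b: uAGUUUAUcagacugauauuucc
miR-21c: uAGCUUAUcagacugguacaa
The 5p strand (chr11:86584120-86584141, minus strand, mm10) begins with U and holds 36.4% G or C. The 3p strand (chr11:86584082-86584103) begins with C and holds 59.1% G or C, and each is 22 bases long. The hairpin of 92 bases (chr11:86584067-86584158) lies in exon 12 of Vmp1, in an untranslated region of that transcript in GENCODE M21, on the same strand. Vmp1 encodes a membrane protein of the endoplasmic reticulum that takes part in autophagy. In a predicted fold of the hairpin (minimum free energy -46.2 kcal/mol), 19 base pairs joined the arms, which were separated by 16 bases.

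Among 1675 mature miRNAs with a sequence, miR-21c was the only other that shared the seed of miR-21a-5p, and none shared the seed of miR-21a-3p. Counting positions from 1 at the 5′ end, miR-21c (chr8:128278188-128278208) differed from miR-21a-5p at 5 of 21 positions compared, by A16G, G18A, U19C, U20A and G21A. miR-21b (chr3:29636768-29636790) differed at 4 of 22, by C4U, G18A, G21U and A22C, and C4U lies in the seed. miR-21c was listed at 0 in all libraries and miR-21b had 4 counts over all 6. Few counts were thus assigned to these related loci, and neither miR-21a locus overlapped another locus of the table.

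miR-21a-5p was the most abundant locus in 6 of 6 libraries. It was counted 753531, 886037 and 754799 times in young replicates 1, 2 and 3, and 320489, 694406 and 731947 times in old replicates 1, 2 and 3. Library totals ran from 904892 to 1706396 counts, and the lowest total was that of old replicate 1. As a share of all counts the young libraries held 51.6%, 51.9% and 49.5% miR-21a-5p. The old libraries held 35.4%, 49.0% and 52.9%. The exact binomial 95% interval of each share was narrow (35.3 to 35.5% in old replicate 1), and it covers counting error only. Old replicate 3 thus lay above every young library, old replicate 2 just below them and old replicate 1 far below.

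**Figure D1:**
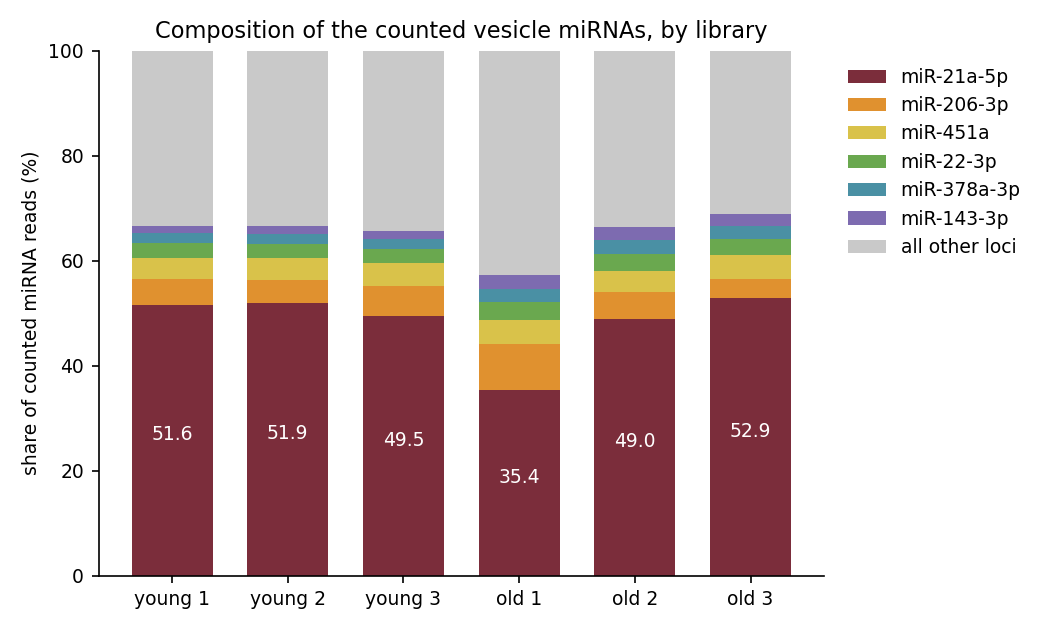
Stacked bars give the share of all counted miRNA reads (%, y axis) taken by miR-21a-5p, by each of the 5 next most abundant loci and by all other loci, for each library (x axis). miR-21a-5p takes 49.0 to 52.9% in 5 libraries and 35.4% in old replicate 1.

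The distance to the next locus was large. In 5 libraries the second locus was miR-206-3p, a miRNA of skeletal muscle, and in old replicate 3 it was miR-451a, a miRNA of red blood cells. miR-21a-5p exceeded that second locus 10.7-fold, 11.6-fold and 8.73-fold in young replicates 1 to 3. In old replicates 1, 2 and 3 it exceeded it 4.08-fold, 9.86-fold and 11.8-fold. Relative to the 7 reference miRNAs often used in vesicle work, summed (miR-16-5p, miR-191-5p, miR-103-3p, miR-93-5p, miR-25-3p, miR-423-5p and miR-484), it was 35.2-fold to 39.4-fold in young libraries. The same ratio was 21.8 in old replicate 1, 39.0 in old replicate 2 and 43.9 in old replicate 3. The low value of old replicate 1 was therefore present both as a share and against the sum of these reference miRNAs. It was not present against every member. Against miR-484 the ratio was highest there (2787 against 1477 to 2284), and against miR-25-3p it was nearly level (565 against 575 to 679). Against miR-16-5p, miR-191-5p, miR-93-5p, miR-423-5p and 1 of 2 copies of miR-103-3p it was lowest there.

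miR-21a-3p was rare. It had 62, 58 and 55 counts in the young libraries and 52, 67 and 42 in the old ones, 336 in all, which placed it at rank 205 of the 347 loci that passed the filter on low counts. Over all libraries 12325 counts of the 5p strand were seen for each count of 3p. Old replicate 1 was the library with the fewest 5p counts but not the fewest 3p counts.

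The arm ratio does not depend on library scaling. Scaled to 1000000 counts of the hairpin (5p plus 3p), the 3p strand had 82.3, 65.5 and 72.9 in young replicates 1, 2 and 3. It had 162 (exact binomial 95% interval 121 to 213), 96.5 and 57.4 in old replicates 1, 2 and 3. The interval of old replicate 1 lay above those of all 3 young libraries and of old replicate 3, and it overlapped that of old replicate 2 (74.8 to 123). The young mean was 73.5 ± 8.43 and the old mean 105 ± 53.0 (SD, n = 3 each; two-sided exact permutation p = 0.5, where 0.1 is the smallest p that 3 against 3 libraries can give). Without old replicate 1 the old mean was 76.9, so the higher old mean rested on that library.

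Set against the rest of the library, the 3p strand showed no such step. For every 1000000 counts outside miR-21a-5p it had 87.8, 70.7 and 71.6 in young replicates 1, 2 and 3, and 89.0, 92.6 and 64.4 in old replicates 1, 2 and 3. The value of old replicate 1 was within the range of the others, and all 6 intervals overlapped. The young mean of 76.7 ± 9.62 and the old mean of 82.0 ± 15.3 were not distinguishable (SD, n = 3 each; two-sided exact permutation p = 0.8). With 42 to 67 counts a library, differences of the size of these intervals (64.4, interval 46.4 to 87.1, in old replicate 3) were not detectable at this depth. In old replicate 1 the 5p strand was thus low against both its own 3p strand and the other miRNAs, while the 3p strand was not low against the other miRNAs.

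**Figure D2:**
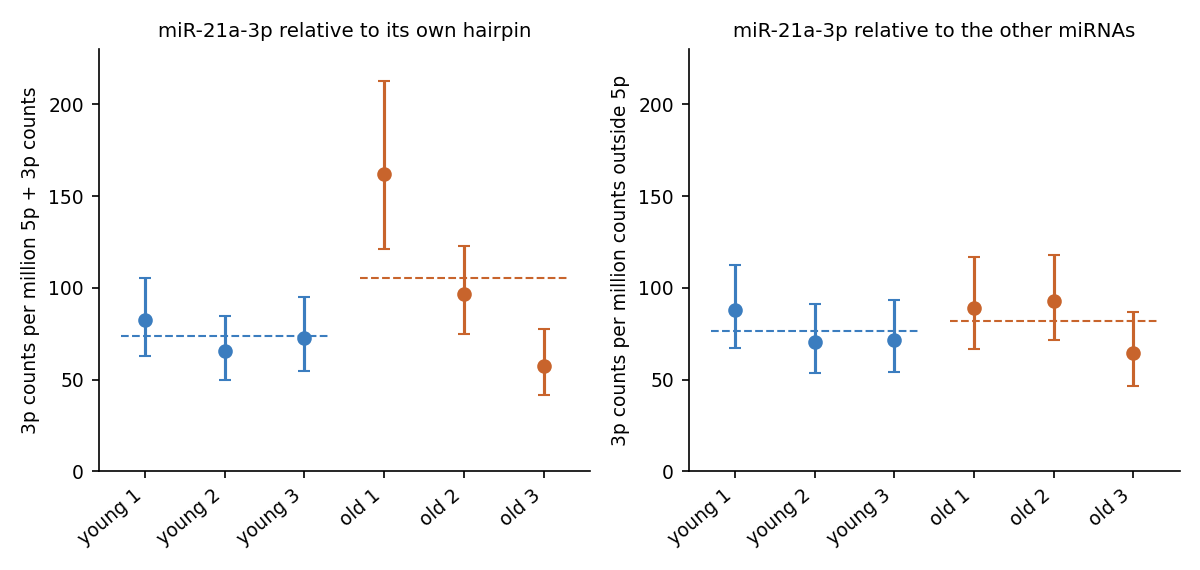
Points give miR-21a-3p counts for every 1000000 counts of the hairpin (left) and for every 1000000 counts outside miR-21a-5p (right) in each library, with exact binomial 95% intervals as bars and group means as dashed lines. Old replicate 1 stands at 162 on the left and at 89.0, among the others, on the right.

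Other hairpins put this arm balance in context. Of 61 hairpins with at least 10000 counts and both arms in the table without an overlap, 44 had the 5p strand as the major arm. The minor arm had a median of 2230 counts for every 1000000 of the hairpin. miR-21a, with 81.1, was the tenth lowest. Lower values were found for miR-206, miR-34a and miR-143 among others, and the hairpins Mir196a-1 and Mir7-2 had a minor arm listed at 0. Some of the lower hairpins, including these 2, share an identical major arm with another hairpin. Reads of such an arm cannot be told apart between copies. For example, miR-7a-5p had 16171 counts at Mir7-2 and 16878 at Mir7-1, whose minor arm had 454. The rank of miR-21a therefore depends in part on how such reads were assigned. Because miR-21a is so abundant, its minor arm still had more counts than those of 40 other hairpins among the 61. In old replicate 1 the minor share of miR-21a was 2.23 times the median of the other 5 libraries. Only miR-27a, with 146 counts of its minor arm over all libraries, had a higher value, 3.30, among those of the 61 hairpins where the median of the other libraries was above 0. The other values refer to the 22 hairpins with at least 300 counts of the minor arm, a minimum chosen after the values were seen, which miR-21a met and miR-27a did not. The median over the 22 was 0.722, and the highest after miR-21a were miR-99b at 1.78 and miR-322 at 1.70. The lowest was the Mirlet7f-1 hairpin at 0.436, so that the minor arms did not move in 1 direction in this library.

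**Figure D3:**
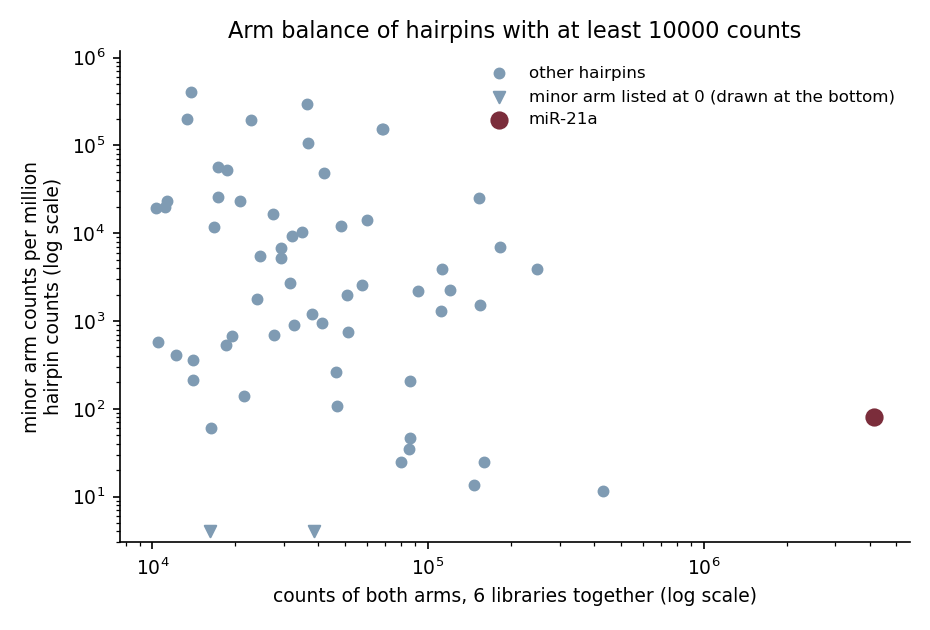
Each point is a hairpin, placed by the counts of both arms over 6 libraries (x axis, log scale) and by minor arm counts for every 1000000 counts of the hairpin (y axis, log scale); triangles mark minor arms listed at 0. miR-21a has the most counts and a minor arm at 81.1, against a median of 2230.

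Old and young vesicles were then compared across all loci to ask whether either strand changed with the age of the muscle. The values are in CPM, counts scaled to 1000000 for each library, on library sizes scaled by TMM, a method that sets libraries level on the bulk of their loci. miR-21a-5p had 519081, 532638 and 483798 scaled CPM in young replicates 1, 2 and 3. It had 322905, 496871 and 567742 in old replicates 1, 2 and 3. The old libraries enclosed the young range on both sides. The means were 511839 ± 25212 and 462506 ± 125984 (SD, n = 3 each), with a log2 fold change of -0.15 ± 0.20 (SE; edgeR quasi-likelihood test, Benjamini-Hochberg adjusted p = 0.769). Without old replicate 1 the log2 fold change was 0.07 ± 0.10, of the opposite sign (adjusted p = 0.654).

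miR-21a-3p had 42.7, 34.9 and 35.3 scaled CPM in the young libraries and 52.4, 47.9 and 32.6 in the old ones. Old replicates 1 and 2 lay above the young range and old replicate 3 below it. The log2 fold change was 0.23 ± 0.28 (SE, adjusted p = 0.710). It was 0.13 without old replicate 1. Of the 2 strands, edgeR called 0, where it called 4.32% of the 347 loci tested. At an unadjusted p under 0.05 it passed 0 of the 2 strands and 22.5% of all loci. DESeq2 called 0 of the 2 and 6.63% of all loci. The groups overlapped for both members, while 27.1% of tested loci had groups that did not overlap. As a share of counts, miR-21a-5p had a young mean of 51.0% ± 1.29 and an old mean of 45.8% ± 9.17 (SD, n = 3 each; two-sided exact permutation p = 0.6). This share, the arm ratio on a linear and a log scale, the 3p level per counts outside 5p and 3 measures of the remaining library made 7 permutation tests, with adjusted p-values of 0.7 or 0.8. In vesicle RNA, fewer vesicles of a source and less miRNA per vesicle cannot be told apart.

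The spread of miR-21a-5p differed between the groups. The SD of its log2 scaled level was 0.072 among young libraries, and 55 of 75 other loci with a mean of at least 1000 counts had a larger one. Among old libraries it was 0.43, and 10 of the 75 had a larger one. The medians of the 75 loci were 0.14 in young and 0.23 in old. Without old replicate 1, a comparison chosen after the values were seen, the old SD was 0.14 and 33 of the 75 had a larger one, so the wide old spread rested on that library. The difference in spread between the groups was not tested.

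Of the marker lists for other sources, the summed muscle list was highest in old replicate 1 by both denominators. Its 9 loci (miR-1a-3p, miR-133a-3p, miR-133b-3p, miR-206-3p, miR-208a-3p, miR-208b-3p and miR-499-5p) summed to 9.91% of all counts there, to 4.95 to 6.26% in young and to 5.83 and 4.61% in the other old libraries. As a share of the counts outside miR-21a-5p they summed to 15.3% there, to 10.3 to 12.4% in young and to 11.4 and 9.78% in the other old libraries. Most of each sum was miR-206-3p, which alone took 8.69% of all counts and 13.4% of the remaining counts in old replicate 1. The other muscle loci were not uniformly highest there. On the TMM scale miR-499-5p was lowest of the old libraries in old replicate 1 (1433 scaled CPM against 1629 and 1531). On that scale miR-1a-3p and both copies of miR-133a-3p were highest in old replicate 1. Of the listed loci 6 passed the filter and 1 locus of miR-1a-3p was listed at 0. The other lists did not stand out by both denominators. The smooth muscle and fibroblast list (7 of 7 loci passed) took 4.54% of all counts there, 4.49 and 3.81% in the other old libraries and 3.10 to 3.36% in young. Of the counts outside miR-21a-5p it took 7.03% there, the lowest of the old libraries (8.79 and 8.08% in the others) and above the young ones (6.42 to 6.65%). Of these remaining counts miR-143-3p alone took 4.17% there against 2.88 to 3.21% in young, and miR-145a-5p too was above the young libraries. Both copies of miR-199a-3p and of miR-199a-5p, and miR-214-3p, were below every young library there. The sum of the red blood cell miRNAs (3 of 3 loci passed) was highest there as a share of all counts (4.52% against 4.03 to 4.50%). It was lowest as a share of the remaining counts (7.003% against 8.09 to 9.55%). Nearly all of this sum was miR-451a, with 40897 counts there against 17 for miR-144-3p and 11 for miR-144-5p. By both denominators miR-144-3p was lowest there, and miR-144-5p was neither highest nor lowest. Leukocyte miRNAs (4 of 5 loci passed, 1 listed at 0) lay within the range of the others by all counts (0.108% against 0.0882 to 0.138%) and were lowest by the remaining counts (0.167% against 0.173 to 0.273%). Both endothelial loci of miR-126a were listed at 0 in all libraries. A locus listed at 0 need not be absent from the vesicles. Under the counting used, 104 of the 106 loci that overlap another held 0 counts.

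By edgeR's test 4 of the 6 tested loci of the muscle list rose in old vesicles, where 3.46% of all 347 tested loci did. They were miR-1a-3p at its counted locus, both copies of miR-133a-3p and miR-499-5p. The call of miR-1a-3p (log2 fold change 0.71 ± 0.18, SE, adjusted p = 0.0285) was lost on total counts without scaling factors and when any young library or old replicate 2 was left out (adjusted p from 0.0528 to 0.217). miR-143-3p also rose (0.70 ± 0.16, adjusted p = 0.0137), the only 1 of 7 tested loci of the smooth muscle and fibroblast list to do so. Its call was lost without any 1 of the young libraries or old replicate 2 (adjusted p from 0.0577 to 0.156). In the leukocyte list miR-155-5p fell, 1 of 4 tested loci, where 0.865% of all tested loci fell. None of the 3 tested red blood cell loci passed. The part of these markers in the value of miR-21a-5p was not tested.

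The dominant row left fewer counts for all other loci. Outside miR-21a-5p the young libraries held 706295, 820359 and 768532 counts, and the old ones 584403, 723327 and 652013. Old replicate 1, with 904892 counts in all, was much closer to the others in these remaining counts than in its total. At least 10 counts were reached by 348, 352 and 353 loci in young and by 309, 342 and 331 in old libraries. If the counts of miR-21a-5p had been spread over the other loci in proportion, 434, 435 and 407 loci in young and 345, 397 and 415 in old would have reached 10 counts by calculation.

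The counted pool was narrow with this row and broad without it. The effective number of miRNAs, the inverse of the summed squared shares, was 3.64, 3.61 and 3.93 in young and 7.02, 4.02 and 3.48 in old libraries. Without miR-21a-5p it was 29.6, 30.1 and 27.7 in young and 24.5, 28.5 and 29.1 in old. Old replicate 1 was the most even library with the row and the least even without it. The order of this library among the 6 was thus reversed by a single locus.

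The same reversal appeared in the shares of other miRNAs. A share of all counts equals the share of the remaining counts divided by 2.07, 2.08 and 1.98 in young replicates 1, 2 and 3. In the old libraries the divisor was 1.55, 1.96 and 2.12. Any locus with an even share of the remaining counts therefore appears raised in old replicate 1 when it is given as a share of all counts. Of the 75 loci with a mean of at least 1000 counts, some of them identical copies, 50 were above all young libraries in old replicate 1 as a share of all counts, and 23 were as a share of the remaining counts. Below all young libraries were 16 by the first measure and 40 by the second. For 16 loci the position turned from above to below.

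miR-451a was such a locus. It took 4.03, 4.17 and 4.36% of all counts in young and 4.52, 4.12 and 4.50% in old libraries, highest in old replicate 1. Of the counts outside miR-21a-5p it took 8.33, 8.67 and 8.64% in young and 6.998, 8.08 and 9.54% in old, lowest in old replicate 1. On the TMM scale it had 41205 scaled CPM in old replicate 1, within the young range of 40512 to 42773. miR-378a-3p, encoded in the metabolic coactivator gene Ppargc1b, took 2.38% of all counts in old replicate 1 against 1.84 to 1.94% in young. Of the remaining counts it took 3.69% there against 3.73 to 4.02% in young. miR-206-3p was highest in old replicate 1 by both measures, with 8.69% of all counts (4.48 to 5.67% in young) and 13.4% of the remaining counts (9.33 to 11.2% in young).

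TMM scaling gave values between those of these 2 denominators. The scaling factor of old replicate 1 was 1.10 with the row in the table and 0.897 with the row taken out. Its effective library size relative to the geometric mean of the 6 was 0.722 and 0.744, so the effective size changed less than the factor. Over the 75 loci, old replicate 1 lay a median of 0.29 (log2) above the median of the other libraries per all counts and 0.11 below it per remaining counts. With TMM it lay 0.14 above with the row and 0.09 above without it. miR-21a-5p itself was lower there under every one of these 4 denominators, by -0.54, -0.96, -0.68 and -0.72 in the same order (log2).

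**Figure D4:**
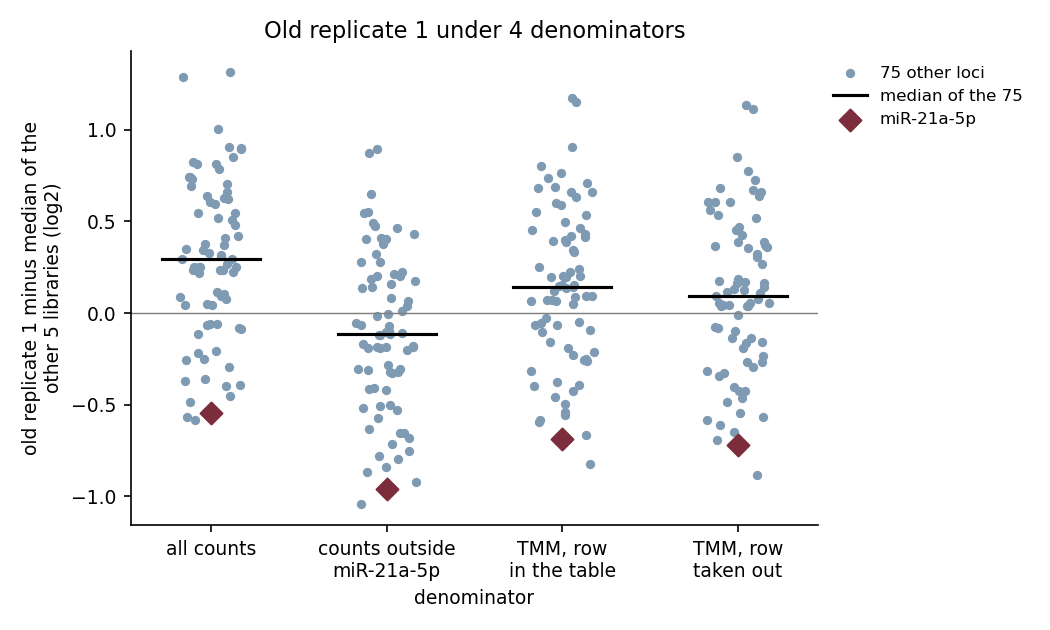
Points give the log2 level of 75 other loci in old replicate 1 minus the median of the other 5 libraries (y axis) under 4 denominators (x axis), with their median as a line and miR-21a-5p as a diamond. The median moves from 0.29 to -0.11 between all counts and counts outside miR-21a-5p, and miR-21a-5p is below 0 in each column.

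The comparison of old with young was refitted after the miR-21a-5p row had been taken out. Log2 fold changes of the 342 loci tested in both fits moved by at most 0.016. All 15 loci called with the row, 12 higher and 3 lower in old, were called again. Without the row 21 of 344 loci (6.1%) were called, 13 higher (3.78%) and 8 lower (2.33%), against 3.46% higher and 0.865% lower with it. With the row kept in the test but left out of library sizes and scaling factors, 18 loci were called, 13 higher and 5 lower. The split with the row taken out moved with the scaling, to 12 higher and 3 lower on DESeq2's size factors and to 13 higher and 25 lower on total counts without scaling factors. When libraries were left out in turn, both fits called from 5 loci (without old replicate 2) to 45 loci (without old replicate 1).

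In all, 6 loci crossed the threshold when the row was removed. They had adjusted p-values of 0.0545 to 0.0691 with the row and 0.0482 to 0.0498 without it. In each the groups did not overlap, as for 27.1% of all tested loci. Because these loci were picked by a small p between the groups, this adds no support. With the row left out of the scaling alone, 3 of them passed (miR-30c-5p, miR-410-3p and miR-615-3p), while miR-99b-5p, miR-362-5p and miR-15b-3p had adjusted p-values of 0.0501 to 0.0555. miR-99b-5p had 4812 to 6809 scaled CPM in young and 3616 to 3978 in old libraries (log2 fold change -0.59 ± 0.17, SE). miR-615-3p, encoded in a Hox gene cluster, had 302 to 389 in young and 189 to 258 in old (-0.69 ± 0.20). miR-362-5p, miR-15b-3p and miR-30c-5p at its chromosome 1 locus had log2 fold changes of -0.74, -0.82 and -0.85. miR-410-3p of the imprinted chromosome 12 cluster had 5.51 to 14.4 in young and 23.3 to 30.2 in old (1.38 ± 0.40). The fold changes and standard errors are those of the fit with the row, and these loci were not called in it.

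Likeness to miR-21a-5p was measured as the SD, over the 6 libraries, of the log2 ratio of a locus to it, which no scaling can alter. Among the 75 loci it ran from 0.11 to 0.81 with a median of 0.41. The most alike were miR-25-3p (0.11), miR-149-5p (0.13), miR-31-3p (0.14), miR-96-5p (0.18) and miR-31-5p (0.19), so that both arms of the miR-31 hairpin were among them. miR-25-3p held to a log2 ratio of -9.33, -9.41 and -9.17 in young and -9.14, -9.17 and -9.35 in old libraries. None of these 5 was called by edgeR's test, and their log2 fold changes ran from -0.33 to 0.04 (adjusted p from 0.353 to 0.934, unadjusted p over 0.05 for all 5). The SD includes the difference between old and young. A fold change near that of miR-21a-5p was thus in part built into this choice. For miR-31-5p the groups did not overlap (3190 to 3274 scaled CPM in young, 2378 to 3095 in old), as for 27.1% of tested loci. Without old replicate 1 they ranked 7, 14, 15, 10 and 17 of 75, so this order rested in part on that library.

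The least alike were miR-133a-3p (0.80 and 0.81 at its 2 copies) and miR-499-5p (0.70), both made in striated muscle, with miR-6240 (0.73) and miR-378d (0.69). Their log2 fold changes between old and young were 1.00 to 1.12, and all 5 were among the loci called by edgeR. That SD includes the difference between old and young, so a large change with age was in part built into this choice and is given as a description. Relative to miR-21a-5p, miR-133a-3p at Mir133a-2 had log2 ratios of -8.73, -8.94 and -8.81 in young and -6.87, -8.05 and -7.72 in old libraries. The old libraries were all higher, and old replicate 1 was the highest. In that library the ratio to miR-21a-5p was above the median of the other 5 for 72 of the 75 loci, by a median of 1.77-fold. The exceptions were miR-149-5p, miR-322-5p and 1 of 2 copies of miR-199a-5p.

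**Figure D5:**
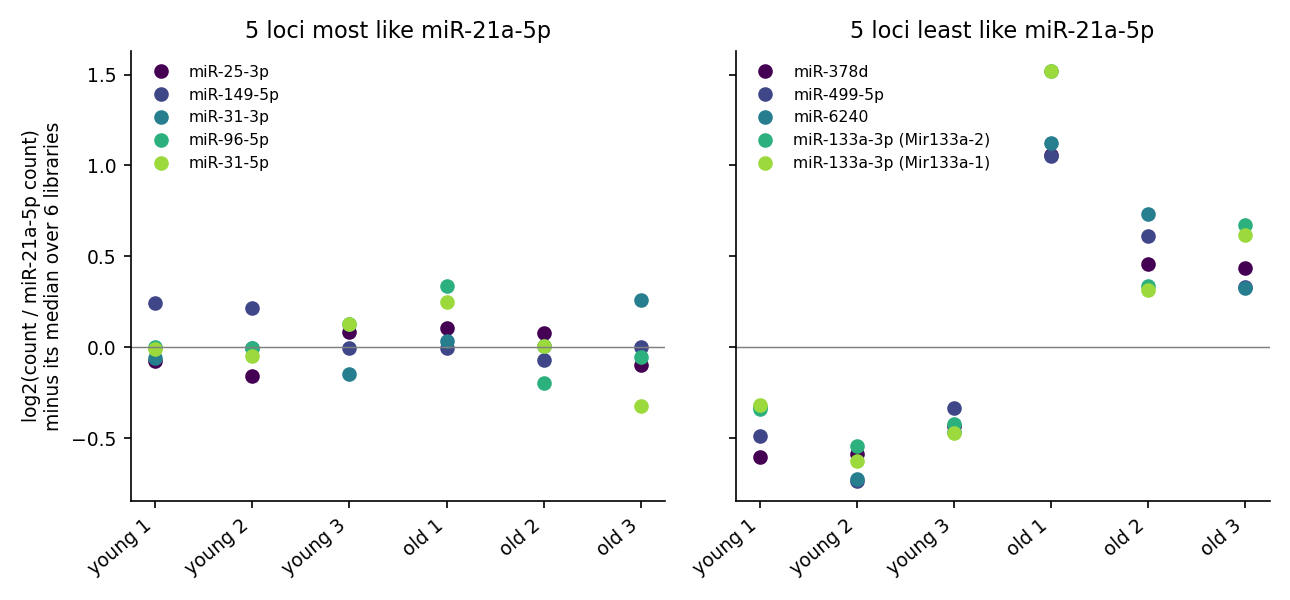
Points give the log2 ratio of a locus to miR-21a-5p minus its median over the 6 libraries (y axis), by library (x axis), for the 5 loci with the smallest SD of that ratio (left) and the 5 with the largest (right). On the right all old libraries lie above all young ones and old replicate 1 is the highest.

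The miRNAs studied alongside miR-21 were taken as lists and described by counts. Of 16 tested loci on the fibrosis list, 2 rose (both copies of miR-133a-3p), 1 fell (miR-155-5p, induced in activated immune cells, log2 fold change -0.81 ± 0.18, adjusted p = 0.0135) and 13 did not pass. The call of miR-155-5p was lost without young replicate 3 (adjusted p = 0.0860) and without old replicate 2 (adjusted p = 0.1001). Over all 347 tested loci 3.46% were called higher in old and 0.865% lower. The median log2 fold change of the 16 loci was 0.016 against 0.038 over all tested loci. miR-26a-5p, the most abundant member, had at 1 of its 2 loci 9416 ± 1358 scaled CPM in young and 11294 ± 352 in old (0.26 ± 0.16, adjusted p = 0.368). The miR-29 members, which repress collagen genes, had log2 fold changes from -0.06 to 0.11. Against the summed fibrosis list, miR-21a-5p was 13.7-fold, 13.6-fold and 12.3-fold in young and 6.70-fold, 10.8-fold and 12.3-fold in old libraries.

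On the inflammation and senescence list 1 of 10 tested loci fell, again miR-155-5p, where 0.865% of all tested loci fell. The other 9 did not pass, and the median of the list was 0.32. For its most abundant member, miR-22-3p, the log2 fold change was 0.28 ± 0.16 (adjusted p = 0.299). miR-146a-5p and miR-146b-5p, which dampen inflammatory signalling, had 0.73 ± 0.32 and 0.60 ± 0.23 and did not pass (adjusted p = 0.181 and 0.139). None of the 9 tested reference loci was called, against 4.32% of all tested loci, and their median was -0.15. For the most abundant of them, miR-191-5p, it was -0.08 ± 0.16 (adjusted p = 0.812). As a share of all counts the reference miRNAs took 1.63% in old replicate 1, above the 1.20 to 1.41% of the other libraries. As a share of the counts outside miR-21a-5p they took 2.52% there, and the young libraries lay at 2.74 to 2.86% and the other old ones at 2.46 and 2.56%. The sum of the reference miRNAs too was thus highest in old replicate 1 by the first denominator and below every young library by the second. Its members did not all follow it. In old replicate 1 miR-484, with 115 counts, was the lowest of the libraries by both denominators, and miR-93-5p, with 4263 counts, was the highest by both.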

How the data were processed

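The deposited table holds whole-number read counts for mature miRNA loci, made with featureCounts 2.0.6 without a strand option or an option for multi-mapping or overlapping reads, per the file headers. Alignment used BWA and the mm10 build, per the submitters' processing notes, with version and trimming unstated. Of 2110 loci, 106 overlap another and 104 of these held 0 counts. Names came from RefSeq by exact coordinates (1734 loci), by a shared identifier (6) or from GENCODE M21 by position with a tolerance of 3 bases (360). Loci passed filterByExpr (minimum count 10, minimum total 15), were scaled by TMM and tested with edgeR 4.0.16 in R 4.3.3, adjusted by the Benjamini-Hochberg method over 347 loci, at a threshold of 0.05. DESeq2 1.42.0 was an alternative. Standard errors came from the coefficient and its F statistic. The procedure was tested on simulated data. Folding used ViennaRNA 2.7.2. Permutation tests were exact and two-sided. Named loci were the members, seed relatives, the 5 most abundant others, the 5 most and 5 least alike, loci whose call changed without the row, and from each list the most abundant and the called loci; other names were chosen after their values were seen. Members and lists were chosen with earlier results of these data known. miR-486a-5p, on the red blood cell list, could not be matched and has no value.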

Additional observations from a re-analysis of the deposited data

How the results depend on the processing

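Neither miR-21a strand was called under any alternative run. Leaving out each library in turn, the log2 fold change of miR-21a-5p ran from -0.32 (without old replicate 3) to 0.073 (without old replicate 1) and that of miR-21a-3p from 0.13 to 0.40. The difference in miR-21a-5p share (old minus young) ran from -8.83 to -0.097 percentage points, and that of miR-21a-3p for every 1000000 hairpin counts from 3.40 to 55.8. In both, the smallest difference came without old replicate 1. Under other scaling, filtering, summing of copies and DESeq2 the log2 fold changes lay between -0.16 and -0.14 for 5p and between 0.22 and 0.25 for 3p. The number of called loci (15) became 23 with DESeq2's test (14 higher, 9 lower) and ran from 5 to 45 when a library was left out: 6, 8 and 8 without young replicates 1, 2 and 3, and 45, 5 and 29 without old replicates 1, 2 and 3. With the miR-21a-5p row taken out (21 loci called) the range was also 5 to 45, and 38 were called on total counts without scaling factors (13 higher, 25 lower), while DESeq2's size factors gave 15 (12 higher, 3 lower). Same-numbered young and old libraries did not deviate together (r = -0.14, 0.026 and -0.14 over 347 loci), so the numbers were not taken as pairs; with a replicate block 6 loci were called and miR-21a-5p had -0.18. Of the other named loci, which kept their direction otherwise, miR-31-3p turned to -0.015 with the replicate block, and leaving out a library gave ranges of -0.24 to 0.28 for miR-31-3p, -0.13 to 0.35 for miR-206-3p, -0.18 to 0.11 for miR-25-3p and -0.026 to 0.12 for miR-451a. Calls of named loci were lost 14 times, for miR-1a-3p, miR-143-3p and miR-155-5p, 10 of them on leaving out a library and 3 with the replicate block (adjusted p = 0.112, 0.0799 and 0.0864). The cause was not tested. Depth limits the 3p strand, at 42 to 67 counts a library, and rarer named loci such as miR-410-3p, at 8 to 35.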
